A study of Homo sapiens with 6 samples.

Results

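The genes described here are 10 members of the TGF-β system that are secreted or released from the cell: the 7 ligand genes TGFB1, TGFB2, TGFB3, INHBA, INHBB, BMP4 and GDF15, and the 3 genes FST, FSTL3 and VASN, whose products bind ligands outside the cell and are called traps. They were chosen by symbol from the 22091 genes in the count tables, and all 10 were found. The choice was made with earlier results of these data known. Counts of these genes set beside all genes are therefore description and no test of the set. RNA was sequenced from 3 cell lines of human liver cancer (hepatocellular carcinoma), named MHCC97L, MHCC97H and HCCLM3. Each was kept without ligand (control) or given TGF-β1 protein at 2.5 ng/mL for 4 h, and where 3 values of a condition follow each other they are in that order of lines. All lines grew in DMEM with fetal bovine serum and antibiotics. MHCC97L and MHCC97H are clones of the same parental line with low and high metastatic potential, and HCCLM3 descends from MHCC97H, so the lines are related. There were 6 libraries, 1 per line and condition. Separate cultures are not mentioned in the labels, and the lines are the only replicates of the treatment. The p-values set a change against the spread of the response over 3 lines, after each gene's spread was drawn toward that of all genes tested. They do not rest on the gene's own spread alone.

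TGF-β family ligands are made as precursors with an inhibitory propeptide that is cut off by furin-type proteases. TGF-β itself stays bound to its propeptide in a latent complex, often tethered to the matrix by LTBP proteins, until integrins, proteases or thrombospondin release it. The free dimer joins type I and type II receptors and activates SMAD proteins, SMAD2 and SMAD3 for TGF-β and activins and SMAD1, SMAD5 and SMAD8 for BMPs. Follistatin (FST) and the follistatin-like protein FSTL3 bind activins and block their access to receptors, and vasorin (VASN), a membrane protein that can be shed, binds TGF-β. In liver, TGF-β is best known as a growth inhibitor of hepatocytes and as an activator of stellate cells.

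The data are expected counts per gene, with library totals of 18485041 to 23242862. Levels are counts per 1e6 counts of the library (CPM) after TMM scaling of the library sizes. A count of 0 allows up to 3 counts, or 0.129 to 0.159 CPM in a single library. Known SMAD-induced genes rose in 3 of 3 lines, which checks the treatment labels: SMAD7 went from 22.3 ± 3.70 to 51.3 ± 11.6 CPM (SD, n = 3 lines). PMEPA1 rose by 3.30 and SKIL by 0.63 on the log2 scale. Of 12 hepatocyte markers 4 rose and 2 fell by edgeR, where 7.78% of all 14176 genes tested rose and 6.64% fell. The keratin gene KRT8 (4782 ± 479 CPM in controls) and the liver factor gene HNF4A (93.9 ± 13.3 CPM) were expressed, while ALB stood at 11.1 ± 10.9 CPM, with 1.43 CPM in the HCCLM3 control, and TTR at 0.572 ± 0.0445 CPM. Markers of other cell types were mixed. Of 8 leukocyte markers 3 were tested and none passed: the summed level of 129 to 221 CPM in controls and 113 to 251 CPM after TGF-β1 was nearly all CD68 (169 ± 46.1 CPM in controls), LYZ stood at 3.15 ± 0.490 CPM, and PTPRC was at or under 0.131 CPM in every library. Of 7 endothelial markers 4 were tested and 1 fell, PECAM1, from 22.4 ± 12.0 to 17.4 ± 10.0 CPM, and their sum was 14.2 to 41.6 CPM in controls and 11.7 to 35.9 CPM after TGF-β1. Of the markers named here, KRT8, HNF4A, CD68, LYZ, PTPRC and PECAM1 did not have whole counts. CD68 shares 1789 exon bases with another gene on the same strand, so its level is uncertain. The part of the markers of other cell types in the results was not tested. In bulk RNA, a change in the number of cells that express a gene and a change in RNA per cell cannot be told apart.

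The sequences just before the start sites of FSTL3, VASN, TGFB1 and INHBB are shown because these 4 genes had the largest changes past the threshold after TGF-β1, described below, and moved in both directions. They are from RefSeq (GRCh38.p14), 5′ to 3′ on the gene's strand, and stop before any annotated exon of the gene: chr19:676242-676364 (+ strand) for FSTL3, chr16:4371698-4371847 (+ strand) for VASN, chr19:41353923-41354072 (- strand) for TGFB1 and chr2:120345986-120346135 (+ strand) for INHBB. Capitals mark the GC box GGGCGG or its reverse complement CCGCCC.
FSTL3: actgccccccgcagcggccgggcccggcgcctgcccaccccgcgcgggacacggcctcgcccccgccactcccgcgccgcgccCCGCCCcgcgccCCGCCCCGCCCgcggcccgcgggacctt
VASN: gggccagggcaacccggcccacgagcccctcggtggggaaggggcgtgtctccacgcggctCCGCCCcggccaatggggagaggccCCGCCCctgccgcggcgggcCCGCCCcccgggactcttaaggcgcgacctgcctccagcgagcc
TGFB1: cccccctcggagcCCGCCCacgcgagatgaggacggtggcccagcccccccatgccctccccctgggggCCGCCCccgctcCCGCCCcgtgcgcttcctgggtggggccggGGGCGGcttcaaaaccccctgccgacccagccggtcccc
INHBB: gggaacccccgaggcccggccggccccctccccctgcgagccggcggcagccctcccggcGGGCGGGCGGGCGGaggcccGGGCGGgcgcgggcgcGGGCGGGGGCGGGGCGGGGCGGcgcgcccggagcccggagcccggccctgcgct
In windows of 300 bases (250 before and 50 after the start), the share of G and C was 78.7% for FSTL3, 72.0% for VASN, 77.3% for TGFB1 and 88.7% for INHBB, against a median of 58.7% over 35116 promoter windows. The windows of FSTL3, VASN, TGFB1 and INHBB held 4, 4, 7 and 10 GC boxes, overlapping ones included, and 45.0% of all windows held at least 1. The SMAD-binding letters CAGAC, searched on both strands, were in none of these 4 windows and in 45.3% of all windows. It was found in windows of TGFB2, INHBA, BMP4, GDF15 and TGFB3. The palindrome GTCTAGAC was in no window of the 10 genes and in 0.202% of all windows. The AP-1 letters TGANTCA, in 7.71% of all windows, were found among these genes only in FST. INHBA had the lowest share of G and C among the windows of these genes, 43.3%. A match or its absence is a description of the letters in the window, not evidence for or against binding. Windows rich in G and C also differ from the median window in the letters they can hold.

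The first comparison asks how 4 h of TGF-β1 changed the transcripts of these ligands and traps. The trap genes FSTL3 and VASN rose 3.10-fold and 3.40-fold, TGFB1 rose less, and INHBB and GDF15 fell. Of the 9 genes that passed the count filter, 3 rose and 2 fell by edgeR's quasi-likelihood test (adjusted p under 0.05), where 7.78% of all genes tested rose and 6.64% fell (14.4% in either direction). FST was too low to test. That split of all called genes, 54.0% higher, moved to 37.1% with library totals and 44.2% with upper quartile scaling, but the same 3 genes of this set were higher and the same 2 lower under both scalings. The median change of the 9 genes was -0.16, beside a median of -0.00 over all genes tested.

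**Figure D1:**
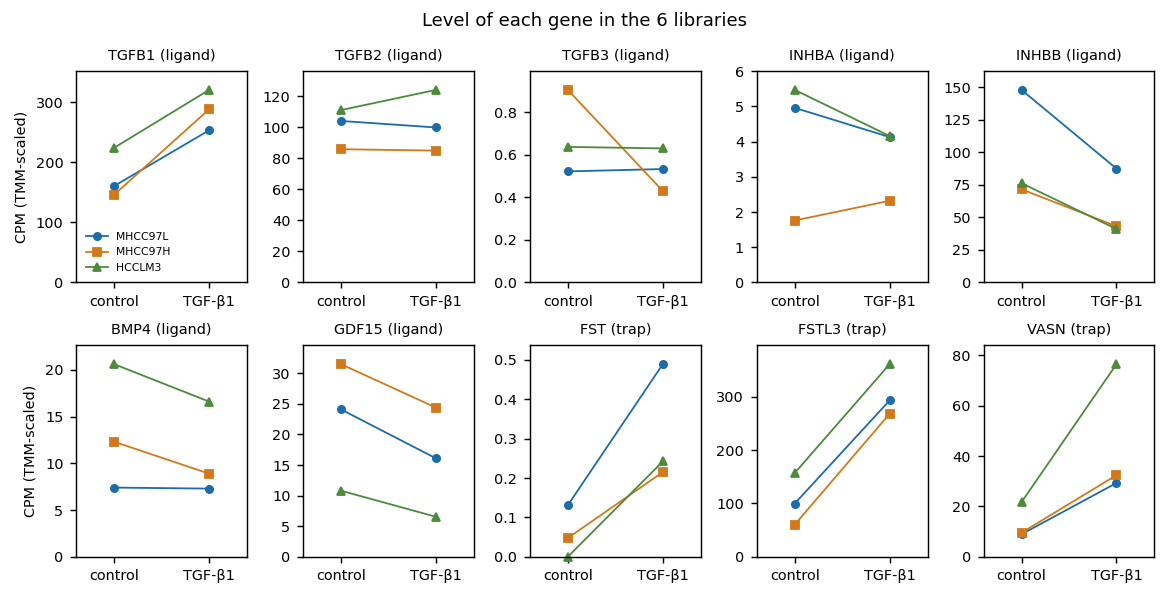
Level of each of the 10 genes in CPM (TMM-scaled) in the control and TGF-β1 library of each line, with a line joining the libraries of a cell line and each vertical axis starting at 0. FSTL3, VASN and TGFB1 are higher in every TGF-β1 library than in any control, and INHBB and GDF15 are lower in all 3 lines.

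VASN (ENSG00000168140.4, hg38 chromosome 16, 4371848 to 4383528, + strand) had 8.94, 9.55 and 21.7 CPM in the controls and 29.3, 32.4 and 76.5 CPM in the TGF-β1 libraries. The lowest treated library stood above the highest control, and HCCLM3 was the highest line in both conditions. The gene rose 3.40-fold, a log2 change of 1.77 (SE 0.0817, adjusted p = 1.19e-05, edgeR quasi-likelihood with Benjamini-Hochberg adjustment, higher in 3 of 3 lines). Only 75 of the 14176 genes tested had a larger rise. Within the lines the log2 change was 1.70 (95% counting interval 1.48 to 1.94) in MHCC97L, 1.76 (1.54 to 2.0) in MHCC97H and 1.81 (1.66 to 1.98) in HCCLM3, so the intervals overlapped. VASN counts were not whole, and the gene lies within CORO7 on the opposite strand, with 0 shared exon bases. The strand setting of the counting is not known. CORO7 itself had 13.9 to 18.6 CPM and a log2 change of 0.05 (SE 0.115).

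FSTL3 (ENSG00000070404.9, chromosome 19, 676365 to 683399, + strand) had 99.7, 60.1 and 157 CPM in the controls and 293, 268 and 361 CPM in the TGF-β1 libraries. Every treated library was above every control, and the order of the lines was the same in both conditions. The gene rose 3.10-fold (log2 change 1.63, SE 0.219, adjusted p = 0.0277 by edgeR, higher in 3 of 3 lines). The rise was uneven over the single libraries: the log2 change was 1.55 (1.49 to 1.62) in MHCC97L, 2.16 (2.07 to 2.25) in MHCC97H and 1.20 (1.14 to 1.27) in HCCLM3. These intervals do not overlap, but they cover counting error only and cannot show that the lines respond differently. The largest rise was in the line with the lowest control level and the smallest in the line with the highest. The same control library enters both the level and the change, and this relation was not tested. Without MHCC97L the adjusted p was 0.112 and without HCCLM3 it was 0.0618 by edgeR, within 1.43e-07 to 0.212 over alternatives, while the log2 change was 1.38 to 1.84. FSTL3 had whole counts and no overlapping gene in GENCODE 29.

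FST (chromosome 5, 53480409 to 53487134, + strand), the gene of follistatin itself, was close to undetected. The controls held 3, 1 and 0 counts and the TGF-β1 libraries 11, 5 and 5. The treated libraries were all above the controls, at levels close to the limit set by a count of 0. Summed over lines, 21 counts against 4 gave a ratio of 4.96 with a 95% exact counting interval of 1.67 to 19.9. That interval covers counting error only and not the spread between lines. Within each line the counting interval of the log2 change included 0: -0.02 to 4.39 in MHCC97L, -0.99 to 7.74 in MHCC97H and from -0.26 upward in HCCLM3. With no count filter edgeR gave FST an adjusted p of 0.0864. Per kb of exon, FSTL3 was the main follistatin family transcript of the pair in each of the 6 libraries, with 34.4 ± 15.9 CPM per kb in controls (SD, n = 3 lines) against 0.0200 ± 0.0222 for FST.

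Among the 10 genes, the 3 trap genes and TGFB1 were those whose 3 TGF-β1 libraries did not overlap the 3 controls. Without FST, which was not tested, that is 3 of the 9 tested genes, where 18.0% of all genes tested did not overlap. Of the 9 tested genes 6 moved the same way in all 3 lines, beside 50.4% of all genes tested.

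TGFB1 (ENSG00000105329.9, chromosome 19, 41301587 to 41353911, - strand) encodes the protein that was added to the cells, and sequencing sees only the cells' own transcript. It had 160.4, 146 and 224 CPM in the controls and 253, 288 and 320.2 CPM in the TGF-β1 libraries. The treated libraries were all above the controls. TGFB1 rose 1.64-fold (log2 change 0.72, SE 0.0893, adjusted p = 0.00148 by edgeR, higher in 3 of 3 lines). The log2 change was 0.66 (0.60 to 0.72) in MHCC97L, 0.97 (0.91 to 1.04) in MHCC97H and 0.52 (0.46 to 0.57) in HCCLM3, so the order of the lines was the same as for FSTL3. TGFB1 counts were not whole, and 215 of its exon bases are shared with HNRNPUL1 on the opposite strand, so its level is uncertain. HNRNPUL1, at 365 to 462 CPM, had a log2 change of 0.04 (SE 0.0622).

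TGFB2 (chromosome 1, 218346235 to 218444619, + strand) had 104, 85.8 and 111 CPM in the controls and 99.8, 84.9 and 124 CPM in the TGF-β1 libraries. Treated and control libraries overlapped, and the log2 change over lines was 0.03 (SE 0.0707, adjusted p = 0.821 by edgeR). Within HCCLM3 it was 0.16 (0.08 to 0.24), within MHCC97L -0.06 (-0.14 to 0.02) and within MHCC97H -0.02 (-0.11 to 0.08). The sign of the change over lines turned with library totals (-0.02).
TGFB3 (chromosome 14, 75958099 to 75982991, - strand) was near the detection limit, with 10 to 19 counts per library and a log2 change of -0.38 (SE 0.394, adjusted p = 0.562 by edgeR). Its level was 0.688 ± 0.197 CPM in controls and 0.531 ± 0.100 CPM after TGF-β1, and the groups overlapped. Per kb of exon, TGFB1 made up 70.9%, 72.9% and 76.0% of the summed 3 isoform transcripts in the controls and 80.0%, 84.3% and 80.3% in the TGF-β1 libraries. TGFB2 supplied nearly all of the remainder, 26.5% ± 2.56 in controls and 18.4% ± 2.37 after TGF-β1 (SD, n = 3 lines).

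**Figure D2:**
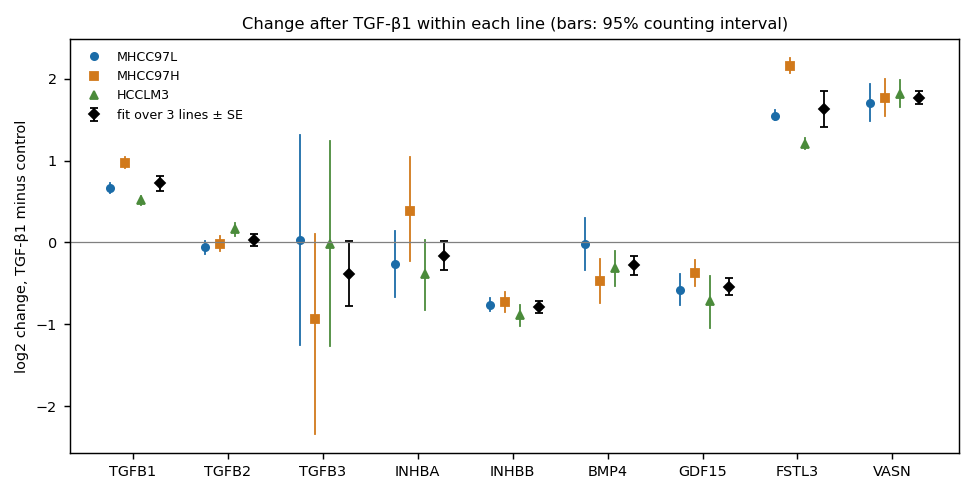
Change after TGF-β1 on the log2 scale for the 9 tested genes, within each line (coloured symbols, vertical bars are 95% counting intervals) and fitted over the 3 lines (black diamonds, ± SE). The 3 lines lie close together for VASN and INHBB, and are spread from 1.20 to 2.16 for FSTL3.

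The activin genes did not move together. INHBB (ENSG00000163083.5, chromosome 2, 120346143 to 120351808, + strand) encodes the activin βB subunit, which forms activin B as a dimer. It had 148, 71.6 and 76.3 CPM in the controls and 87.5, 43.2 and 41.1 CPM in the TGF-β1 libraries. The gene was lower in 3 of 3 lines, although the treated MHCC97L library stood above the controls of the other two lines. INHBB fell by 0.79 on the log2 scale, to 0.577 of its control level (SE 0.0695, adjusted p = 0.000269 by edgeR). Only 210 of 14176 genes had a larger fall. The log2 change was -0.76 (-0.84 to -0.68) in MHCC97L, -0.73 (-0.85 to -0.61) in MHCC97H and -0.89 (-1.02 to -0.77) in HCCLM3.

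INHBA (chromosome 7, 41667168 to 41705834, - strand), the activin βA subunit gene and a known SMAD target in other cells, had 4.96, 1.76 and 5.47 CPM in the controls and 4.13, 2.32 and 4.16 CPM in the TGF-β1 libraries. The groups overlapped and the lines did not move the same way. The log2 change was -0.16 (SE 0.183, adjusted p = 0.600 by edgeR). INHBB supplied 98.4% ± 0.931 of the summed INHBA and INHBB transcripts per kb in controls and 97.5% ± 1.08 after TGF-β1 (SD, n = 3 lines).

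Set against the activin transcripts, FSTL3 was the lower in 2 of 3 controls and the higher in 3 of 3 TGF-β1 libraries. The ratio of FSTL3 to INHBA plus INHBB, each per kb of exon, was 0.694 in the MHCC97L control, 0.868 in the MHCC97H control and 2.09 in the HCCLM3 control. After TGF-β1 it was 3.43, 6.35 and 8.84 in the same order, a 4.95-fold, 7.32-fold and 4.23-fold increase. The ratio of VASN to TGFB1 per kb was 0.0643, 0.0753 and 0.112 in the controls and 0.134, 0.130 and 0.276 in the TGF-β1 libraries. These are ratios of transcripts within a library and say nothing of protein amounts. Exon lengths are those of all annotated exons merged, so a gene with rare long isoforms is placed too low.

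**Figure D3:**
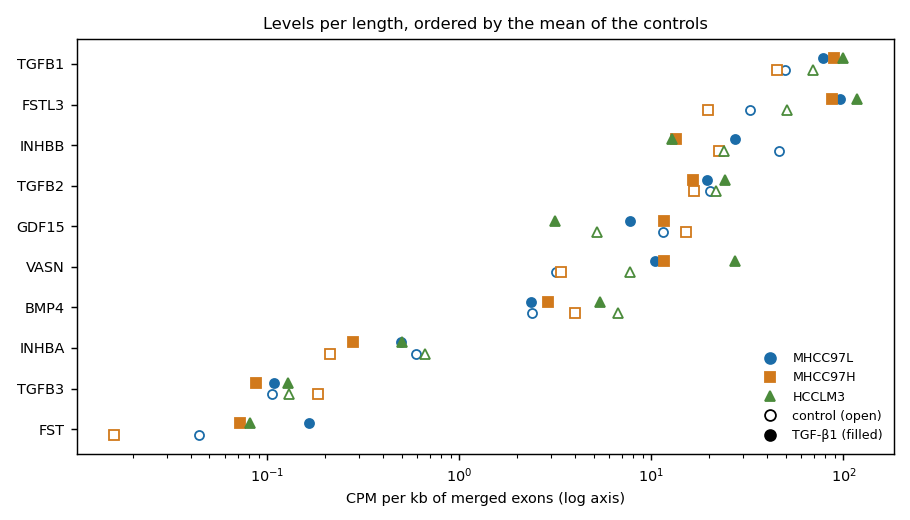
Level per kb of merged exons (log axis) of the 10 genes in each library, open symbols for controls and filled symbols for TGF-β1, ordered by the mean of the controls. FSTL3 moves from between 19.6 and 51.1 in controls to between 87.4 and 118 after TGF-β1, INHBB moves the other way, and the HCCLM3 control of FST, at 0 counts, cannot be drawn.

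GDF15 (ENSG00000130513.6, chromosome 19, 18374731 to 18389176, + strand) encodes a distant, stress-induced member of the family that signals through the receptor GFRAL. It had 24.1, 31.5 and 10.8 CPM in the controls and 16.1, 24.4 and 6.54 CPM in the TGF-β1 libraries. GDF15 was lower in 3 of 3 lines, though the groups overlapped, with the HCCLM3 control below every TGF-β1 library of the other lines. It fell by 0.54 on the log2 scale (SE 0.0993, adjusted p = 0.0101 by edgeR). The log2 change was -0.58 (-0.77 to -0.39) in MHCC97L, -0.37 (-0.53 to -0.21) in MHCC97H and -0.72 (-1.05 to -0.41) in HCCLM3. Without MHCC97L the adjusted p was 0.0950 by edgeR, within 0.00268 to 0.809 over alternatives. BMP4 (chromosome 14, 53949736 to 53958761, - strand), a ligand of the SMAD1, SMAD5 and SMAD8 branch, had 7.40, 12.3 and 20.6 CPM in the controls and 7.29, 8.89 and 16.6 CPM in the TGF-β1 libraries. Its log2 change of -0.28 (SE 0.115) did not pass (unadjusted p = 0.0380, adjusted p = 0.139 by edgeR), with -0.02 (-0.34 to 0.30) in MHCC97L, -0.47 (-0.74 to -0.20) in MHCC97H and -0.31 (-0.53 to -0.10) in HCCLM3. The last 2 counting intervals exclude 0.

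Whether the response differed between HCCLM3 and the MHCC97 pair was tested with an interaction term, which leaves 1 residual degree of freedom. By edgeR 0 of the 9 genes passed and 1 had an unadjusted p under 0.05, as did 14.2% of all genes tested, and DESeq2 and limma-voom also gave 0. Over all genes tested 1.59% passed, 0.769% with a more positive response in HCCLM3 and 0.818% with the opposite. The gene with the unadjusted p under 0.05 was TGFB1, whose response in HCCLM3 was lower by a log2 difference of -0.30 (SE 0.131, adjusted p = 0.311 by edgeR). For FSTL3 the difference was -0.64 (SE 0.408, adjusted p = 0.670 by edgeR) and for VASN 0.08 (SE 0.164).

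The lines also differed in the levels of these genes. These comparisons use both libraries of each line with treatment as a term, and every pair of comparisons shares a line. With 1 library per line and condition, no line was replicated within a condition. The spread is what remains after the line and treatment terms, again drawn toward that of all genes tested. The p-values therefore do not measure variation between cultures of a line. VASN and BMP4 were highest in HCCLM3, GDF15 was lowest there, INHBB was highest in MHCC97L and INHBA was lowest in MHCC97H. Between HCCLM3 and MHCC97L, 3 of the 9 genes were higher in HCCLM3 and 2 lower by edgeR, where 15.0% and 14.8% of all genes tested were (29.8% in either direction). Between HCCLM3 and MHCC97H, 5 were higher and 1 lower in HCCLM3, where 13.3% and 13.9% of all genes were (27.2% in either direction). Between MHCC97H and MHCC97L, 2 were lower and 0 higher in MHCC97H, where 1.08% and 1.37% of all genes were (2.45% in either direction). For that pair 5 of the 9, and 15.8% of all genes tested, had an unadjusted p under 0.05 by edgeR, limma-voom called 1 gene higher, GDF15, and of the 9 genes DESeq2 called only INHBB. Without HCCLM3 the adjusted p by edgeR for that pair was 0.00549 for GDF15 (0.00549 to 0.239 over alternatives), 0.0392 for BMP4 (0.0392 to 0.469) and 0.0339 for TGFB2 (0.0339 to 0.402).

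**Figure D4:**
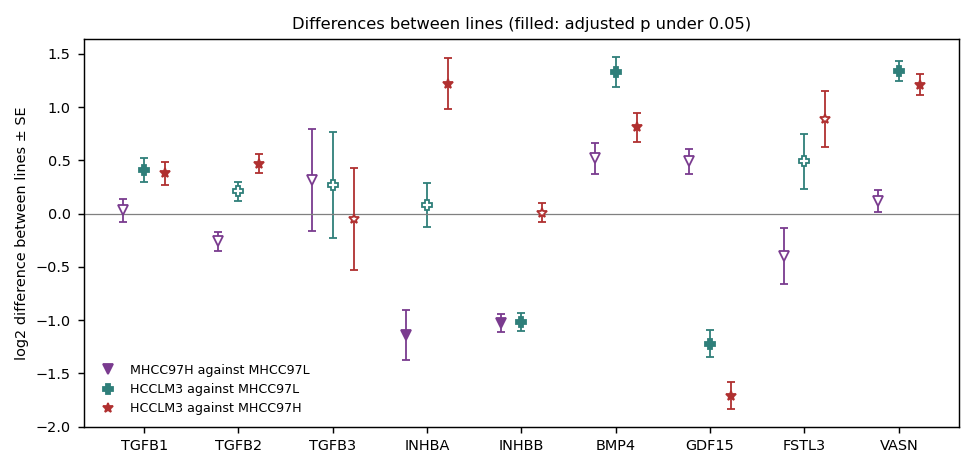
Difference between lines on the log2 scale (± SE) for the 9 tested genes in the 3 comparisons, with filled symbols where the adjusted p is under 0.05. GDF15 is lower and VASN and BMP4 are higher in HCCLM3 than in either other line, and INHBB is lower in both MHCC97H and HCCLM3 than in MHCC97L.

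GDF15 showed the largest difference among the 9 genes. Its mean over the control and treated library was 28 CPM in MHCC97H, 20.1 in MHCC97L and 8.68 in HCCLM3. HCCLM3 was lower than MHCC97H by a log2 difference of -1.71 (SE 0.126, adjusted p = 3.09e-05 by edgeR) and lower than MHCC97L by -1.22 (SE 0.127). The neighbours MHCC97H and MHCC97L did not pass (0.49, SE 0.116, adjusted p = 0.0689 by edgeR). VASN averaged 49.1 CPM in HCCLM3, 21.0 in MHCC97H and 19.1 in MHCC97L. HCCLM3 was 2.53-fold higher than MHCC97L (adjusted p = 2.41e-05 by edgeR) and 2.32-fold higher than MHCC97H. MHCC97H and MHCC97L differed by 0.12 (SE 0.101), which did not pass. BMP4 averaged 18.6, 10.6 and 7.34 CPM in HCCLM3, MHCC97H and MHCC97L. HCCLM3 was above MHCC97H by 0.81 (SE 0.137) and above MHCC97L by 1.33 (SE 0.141), both past the threshold, and MHCC97H and MHCC97L did not differ past it (0.52, SE 0.146, adjusted p = 0.121 by edgeR).

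INHBB averaged 118 CPM in MHCC97L, 58.7 in HCCLM3 and 57.4 in MHCC97H. MHCC97H was lower than MHCC97L by a log2 difference of -1.03 (SE 0.0849, adjusted p = 0.000752 by edgeR) and HCCLM3 by -1.02 (SE 0.0851), and those lower lines differed by 0.01 (SE 0.0855). INHBA averaged 4.82 CPM in HCCLM3, 4.55 in MHCC97L and 2.04 in MHCC97H. It was lower in MHCC97H than in MHCC97L by -1.14 (SE 0.235, adjusted p = 0.0440 by edgeR), a call lost with library totals (0.0571), DESeq2 (0.167) and no count filter (0.0554), in a range of 0.00673 to 0.167. It was 2.32-fold higher in HCCLM3 than in MHCC97H (adjusted p = 0.00528 by edgeR).
TGFB1 averaged 272, 217 and 207 CPM in HCCLM3, MHCC97H and MHCC97L. HCCLM3 was higher than MHCC97L by 0.41 (SE 0.109, adjusted p = 0.0198 by edgeR) and than MHCC97H by 0.38 (SE 0.109, adjusted p = 0.0315), the latter call lost with library totals (0.0548) and without MHCC97L (0.0693), in a range of 0.0102 to 0.0693. TGFB2 averaged 118, 102 and 85.4 CPM in HCCLM3, MHCC97L and MHCC97H, and only HCCLM3 and MHCC97H differed past the threshold (0.47, SE 0.0868, adjusted p = 0.00416 by edgeR). FSTL3 averaged 259, 196 and 164 CPM in HCCLM3, MHCC97L and MHCC97H, and no pair passed. HCCLM3 was above MHCC97H by 0.89 (SE 0.264, adjusted p = 0.0975 by edgeR), with 0.0390 by DESeq2 in a range of 0.0390 to 0.142. HCCLM3 was above MHCC97L by 0.49 (SE 0.261, adjusted p = 0.269 by edgeR), with 0.00281 without MHCC97H in a range of 0.00281 to 0.348. TGFB3 averaged 0.667, 0.633 and 0.528 CPM in MHCC97H, HCCLM3 and MHCC97L, and no pair passed.

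Other genes of the same system were read from lists, whose counts stand beside 7.78% higher and 6.64% lower over all genes tested. The lists too were chosen with earlier results of these data known, so these counts are description and no test of a list. Of 26 other family ligand genes, 8 were at 0 in all libraries and 8 passed the count filter, of which 1 rose and 1 fell (median change -0.16). BMP6, a BMP that induces hepcidin in liver, rose by 0.63 (SE 0.0796, adjusted p = 0.00150 by edgeR), from 26.0 ± 3.66 to 40.3 ± 4.82 CPM. BMP2 fell by 0.46 (SE 0.0954, adjusted p = 0.0163), from 60.9 ± 17.2 to 45.6 ± 19.2 CPM. GDF11, at 27.9 ± 2.68 CPM in controls, did not pass, at -0.18.

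Of 27 genes of latency, processing and activation, 21 were tested, 8 rose and 1 fell, beside 7.78% and 6.64% of all genes tested, with a median of 0.20 beside -0.00. FURIN, which encodes the protease that cuts TGF-β precursors, went from 76.7 ± 10.1 to 178 ± 36 CPM, a rise of 1.20 (SE 0.0721, adjusted p = 5.50e-05 by edgeR). The latent TGF-β binding protein genes LTBP4, LTBP2 and LTBP3 rose by 0.75, 0.86 and 0.53, and THBS1, whose product can activate latent TGF-β, rose by 0.51. FBN1, which encodes the fibrillin that anchors latent complexes, fell by 0.33 (SE 0.0908, adjusted p = 0.0426). THBS1 and FBN1 did not have whole counts, and THBS1 overlaps FSIP1 on the opposite strand.

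Of 24 other secreted antagonist genes 11 were tested, of which 1 rose and 10 did not pass. BGN, which encodes the matrix proteoglycan biglycan, rose by 2.63 (SE 0.311, adjusted p = 0.000690 by edgeR) from 0.566, 0.238 and 0.0531 CPM in the controls to 3.47, 1.72 and 0.194 CPM in the TGF-β1 libraries, low values throughout. BGN is also made by stellate cells and fibroblasts. Of 10 markers of those cells 5 were tested and 1, COL1A1, rose (from 0.402 ± 0.0882 to 6.15 ± 0.913 CPM). LRAT went the other way without passing, with a log2 change of -1.43 (SE 0.441, adjusted p = 0.0628 by edgeR). The summed level of the 10 markers was 12.1 to 35.2 CPM in controls and 20 to 39.4 CPM after TGF-β1. LUM stood at 9.27 to 17.7 CPM over the 6 libraries and DCN at 0.353 to 3.50 CPM, COL3A1 was at 14.4 and 11.7 CPM in the HCCLM3 libraries and at or under 0.381 CPM in the others, and ACTA2, PDGFRB and DES were at or under 0.267 CPM in every library. The part of these markers in the BGN result was not tested. The antagonists with the highest mean CPM, not corrected for length, were CRIM1, NBL1 and TWSG1, which stood at -0.20, 0.31 and -0.08 and did not pass. CRIM1, NBL1 and TWSG1 did not have whole counts. NBL1 shares 552 exon bases with MICOS10-NBL1 and 131 with MICOS10 on the same strand. Of 20 receptor and co-receptor genes 15 were tested, 3 rose and 3 fell: the type II BMP receptor gene BMPR2 rose by 0.89, ACVR1 by 0.48 and TGFBR1 by 0.44, while TGFBR3, TGFBR2 and ACVR1B fell by 1.36, 0.59 and 0.36 on the log2 scale. BMPR2, ACVR1 and TGFBR3 did not have whole counts.

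The genes whose log2 CPM followed each member most closely over the 6 libraries were taken from about 10406 genes with a mean of at least 5 CPM. These correlations describe 6 libraries that share lines and treatment, and have no test. FSTL3 was most like JUN (Pearson's r = 0.999) and PDGFB (0.995). VASN was most like TGFBR1 (0.996) and VEGFA (0.995), and TGFB1 most like ECE1 (0.998) and MPLKIP (0.994). GDF15 was most like KCNK5 and MYO18A (both 0.999). INHBB was most like NASP (0.994) and NCK1 (0.983), INHBA most like PLK2 (0.998) and CRYZL1 (0.994), TGFB2 most like APOBEC3C (0.996) and NELFA (0.995), and BMP4 most like ZNF616 and PI4K2B (0.994 and 0.993). Among the members, the highest r were 0.97 for TGFB1 with FSTL3, 0.97 for TGFB1 with VASN and 0.92 for FSTL3 with VASN. The lowest were -0.90 for TGFB2 with GDF15, -0.79 for GDF15 with VASN and -0.77 for INHBB with VASN.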

How the data were processed

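Per the labels' protocols, Trizol-extracted total RNA went into standard Illumina libraries, with no word on strand. The authors deposited expected counts per Ensembl gene, 1 table per library. They are called expected counts from their values, of which 63.6% to 64.6% were whole. Per the submitters' processing notes, hg38 and the tools Cuffdiff 1.3.0, Cufflinks 2.2.1 and TopHat2 2.1.1 were used, with no role given, and the counting tool is not given. Symbols came from a gene name table or GENCODE 29 (GRCh38), for 19574 of 22091 IDs. Positions, overlaps and exon lengths came from GENCODE 29.

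Counts were rounded. filterByExpr by treatment kept 14176 genes, and TMM factors were 0.972 to 1.03. Tests used R 4.3.3 and edgeR 4.0.16 (quasi-likelihood, robust, Benjamini-Hochberg at 0.05) with cell line and treatment as terms and 2 residual degrees of freedom, and were tested on simulated data, where false calls were more frequent than the nominal rate. The pairing is by cell line, and deviations of a line's libraries from their condition means correlated at 0.587, 0.456 and 0.728 in MHCC97L, MHCC97H and HCCLM3. Within a line, changes use a prior count of 2. With 1 library per line and condition, the 95% exact conditional binomial intervals cover counting error only. Reads carried no molecular identifiers, so copies of a molecule cannot be told from separate molecules. Alternatives used DESeq2 1.42.0, limma-voom (limma 3.58.1), other scalings and filters, and fits without a line. Tables and figures used Python 3.11.15, pandas 2.3.3, numpy 2.4.6, scipy 1.17.1 and matplotlib 3.10.9.

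All 10 members are named. From lists, up to 5 genes past the threshold in each direction are named (3 for receptors) and the 3 ligands and antagonists with the highest mean CPM, and for each member at 1 CPM or more the 2 most similar genes. The members and lists were chosen with earlier results of these data known.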

Additional observations from a re-analysis of the deposited data

Results flagged for a closer look

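INHBA moved in opposite directions in the MHCC97 lines, with a log2 change of -0.26 in MHCC97L (95% counting interval -0.67 to 0.14) and 0.38 in MHCC97H (-0.23 to 1.04). TGFB3 did so too, with 0.03 in MHCC97L (-1.25 to 1.31) and -0.93 in MHCC97H (-2.34 to 0.10), but the MHCC97L value rests on 12 counts in each library, and with library totals it was -0.01, the same direction as -0.97 in MHCC97H. With 1 library per line and condition these differences between lines were not tested, and all 4 counting intervals include 0.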

How the results depend on the processing

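Leaving out both libraries of a line changed the number of genes called for TGF-β1 from 2044 to 611 (without MHCC97L) up to 3973 (without HCCLM3), and of this set 2 to 3 were called higher and 1 to 2 lower. With no replicate block, that is without the pairing by cell line, 10 genes were called, and of this set 0 were higher and 0 lower, with adjusted p of 0.271 for VASN, 0.212 for FSTL3, 0.243 for TGFB1, 0.528 for INHBB and 0.809 for GDF15 (edgeR). Most changes that turned sign were near 0. TGFB2 after TGF-β1 was -0.02 with library totals, -0.00 with upper quartiles and -0.04 (without HCCLM3) to 0.07 (without MHCC97L) with a line left out. TGFB3 after TGF-β1 was not near 0 over all lines (-0.38, SE 0.394), and was -0.56 to 0.01 (without MHCC97H) with a line left out. Between HCCLM3 and MHCC97H, INHBB was -0.02 with library totals and -0.01 with upper quartiles, and TGFB3 was 0.00 by limma-voom. Between MHCC97H and MHCC97L, 1 gene of this set was lower with library totals, DESeq2 or no count filter, 1 was higher by limma-voom, and without HCCLM3 2 were higher and 1296 of all genes were called. Genes called for the difference in response were 225, and 136 with library totals, 21 by DESeq2, 42 with no count filter and 115 with a stricter filter. Within HCCLM3 the change was 0.45 for TGFB1 and 1.13 for FSTL3 with library totals. The cause was not tested. Of the single tests of these genes under alternatives, 302 kept their direction and side of the threshold, 13 lost a call, 6 gained one and 7 turned sign. Depth limits TGFB3 and FST, which had at most 19 counts in a library.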
